A study of Mus musculus with 2 samples.

Results

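The 7 genes described here, Hes1, Hes5, Hey1, Hey2, Heyl, Nrarp and Rbpj, are the readout end of Notch signalling and were chosen by name out of 21951 gene and transgene features. They were followed in 1 single-cell library, sorted for endothelial cells (ECs), in which 6 hashtag-labelled groups of mouse heart and liver cells were pooled. All groups came from C57BL/6 pups aged postnatal day 6 to 7, after a dose of 40 mg/kg 4-hydroxytamoxifen on day 3, and the cells were sorted as CD31+ MbTomato+. The iSuRe-Cre and iSuRe-HadCre groups carried Cdh5-CreERT2, a tamoxifen-inducible Cre driven in ECs, together with the iSuRe-Cre allele, which keeps Cre on with the MbTomato reporter, or the iSuRe-HadCre allele, which gives Cre for a limited time before MbTomato. A figure of the study shows Notch1 floxed alleles in both of these groups. The labels do not name them, and neither the control genotype nor the number of pups behind each group is given in the sources used here. Each group was therefore 1 sample, and no test between groups was possible. Intervals below are exact 95% intervals that cover counting error only, and not the spread between animals.

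When a Notch receptor is engaged by a ligand on a neighbouring cell, proteases release its intracellular domain, which enters the nucleus and joins the DNA-binding protein RBPJ to switch on target genes. Among the best known of these are the Hes and Hey genes, which encode transcriptional repressors, and Nrarp, which encodes a feedback inhibitor of the pathway. In blood vessels Notch signalling is known for setting arterial identity and for restraining tip cells during sprouting. Rbpj itself encodes the DNA-binding partner and is not a classical target.

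Hes1 lies at chr16:30064384-30067796 (plus strand), Hey1 at chr3:8663359-8667256 (minus strand), Hey2 at chr10:30832359-30842801 (minus strand) and Heyl at chr4:123233556-123249875 (plus strand) in GENCODE on GRCm38. Hes5 lies at chr4:154960923-154962371, Nrarp at chr2:25180758-25183339 and Rbpj at chr5:53466152-53657362, all on the plus strand, and each of these 3 overlaps at least 1 non-coding gene of the other strand. Rbpj also has the processed pseudogenes Rbpj-ps1 and Rbpj-ps3, which are not among the features, so its count is less certain than those of the others. All 7 genes are protein coding.

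RBPJ binds DNA at sites with the core TGGGAA. RefSeq promoter sequences on GRCm38, from 250 bases before to 50 bases after a RefSeq start site, were matched for Hes5, Hey2, Nrarp and Rbpj, and not for Hes1, Hey1 and Heyl. The Hes5 and Hey2 promoters are shown because each holds the core 2 times, once on each strand. The core is in capitals, as TGGGAA or as its reverse complement TTCCCA.
Hes5, chr4:154960673-154960972, plus strand: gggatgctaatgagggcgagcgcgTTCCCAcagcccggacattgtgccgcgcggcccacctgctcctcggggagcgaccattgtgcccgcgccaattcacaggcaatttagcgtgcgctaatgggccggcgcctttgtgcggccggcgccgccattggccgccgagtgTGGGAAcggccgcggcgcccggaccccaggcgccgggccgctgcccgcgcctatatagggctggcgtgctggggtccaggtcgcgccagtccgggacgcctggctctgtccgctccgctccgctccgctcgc
Hey2, chr10:30842734-30843033, minus strand: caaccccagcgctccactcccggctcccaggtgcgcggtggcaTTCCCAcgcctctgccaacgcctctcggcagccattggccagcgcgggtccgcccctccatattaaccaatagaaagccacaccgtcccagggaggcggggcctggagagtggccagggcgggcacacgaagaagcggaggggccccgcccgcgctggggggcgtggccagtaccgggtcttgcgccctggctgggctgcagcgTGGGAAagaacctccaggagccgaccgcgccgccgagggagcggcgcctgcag
Of 32851 promoters of this length, 25.6% held the core on at least 1 strand and 3.79% held it 2 or more times. In Hes5 the matches start 226 and 82 bases before the RefSeq start site, and in Hey2 they start 207 and 3 bases before it. The RefSeq start site of Hey2 lies slightly inside the gene as located above, and so does its second match. The first of the 2 Rbpj entries also held 2 matches and the other held 1. Both Rbpj windows, at chr5:53590096-53590395 and chr5:53590236-53590535, lie inside the gene as located above and not at its first base. Nrarp held no TGGGAA in this window and had 1 E box, CACGTG, a motif found in 7.15% of promoters, while CACGCG, a motif of Hes proteins found in 9.27%, was in none of the 4 genes. Both strands were searched for each motif. A match is a description of the letters and not evidence of binding.

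The quality limits (2000 to 75000 gene UMIs, over 500 genes, mitochondrial and haemoglobin transcripts each below 5%) were passed by 14348 barcodes. Of these, 2391 were positive for a single hashtag, 186 for several and 11771 for none. Only 8318 of the 14348 had a Cdh5 UMI, so the library also held barcodes without this EC marker. Cells with at least 1 Cdh5 UMI numbered 255, 437 and 319 in control, iSuRe-Cre and iSuRe-HadCre heart and 61, 903 and 84 in the same order in liver. UMIs (unique molecular identifiers, each standing for a captured RNA molecule) summed to 838074 in the smallest group, control liver, and to 10253165 in the largest, iSuRe-Cre liver, with medians of 7392 to 16398 UMIs per cell, the highest in iSuRe-Cre heart. Levels are given as UMIs per 1000000 gene UMIs of a group (CPM). Notch1 itself was at 137, 12.9 and 23.5 CPM in control, iSuRe-Cre and iSuRe-HadCre heart and at 143, 21.7 and 33.5 CPM in liver, and the hashtag minimum used here had been chosen with Notch1 levels known. The reporter sequence WPRE was at 563, 63.0 and 1021 CPM in the heart groups in this order and at 338, 99.1 and 867 CPM in those of liver. The tissue labels were compared with markers. The sinusoidal list (Stab2, Stab1, Lyve1, Clec4g and Fcgr2b, defining genes of liver sinusoids) summed to 218, 2527 and 610 CPM in control, iSuRe-Cre and iSuRe-HadCre liver. It was at 83.3, 71.5 and 58.9 CPM in heart in the same order, against 438 in free RNA. The endocardial list (Npr3, Adgrg6 and Hapln1) was at 376, 53.6 and 136 CPM in liver and 79.6, 119 and 88.4 CPM in heart. Control liver thus held few RNAs of sinusoidal ECs and more of the endocardial list than any heart group. These lists bear out its label only in part, although it is the reference of each liver ratio to control. The liver groups also differ in the kinds of cells they hold.

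Hes1, a repressor of differentiation genes, had the most UMIs of the Hes and Hey genes and was lowest in iSuRe-Cre in both tissues. In heart it was at 248 CPM in control (95% interval 231 to 266), 114 in iSuRe-Cre (107 to 121) and 196 in iSuRe-HadCre (181 to 212). In liver the same groups had 165 CPM (138 to 195), 78.8 (73.5 to 84.4) and 121 (99.2 to 147). The 3 intervals did not overlap in heart, and in liver those of control and iSuRe-HadCre did. The ratio to control was 0.458 (0.416 to 0.505) in iSuRe-Cre heart and 0.479 (0.399 to 0.578) in iSuRe-Cre liver, and 0.790 (0.710 to 0.879) and 0.736 (0.566 to 0.956) in iSuRe-HadCre heart and liver. Free RNA, taken from 24194 barcodes of 10 to 100 UMIs, held Hes1 at 88.9 CPM, so the level of iSuRe-Cre liver was below that of free RNA.

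Hey1, a repressor linked to arterial identity, separated the 2 alleles. It was at 50.02 CPM in control heart (42.4 to 58.6), 11.9 in iSuRe-Cre heart (9.72 to 14.5) and 52.9 in iSuRe-HadCre heart (45.4 to 61.4), from 152, 100 and 176 UMIs. In liver the levels were 31.0 CPM (20.3 to 45.5), 4.78 (3.54 to 6.32) and 32.3 (21.5 to 46.7), from 26, 49 and 28 UMIs. In both tissues the iSuRe-Cre interval lay below the other two, and those of control and iSuRe-HadCre overlapped. The ratio to control was 0.239 (0.184 to 0.310) in iSuRe-Cre heart and 0.154 (0.0939 to 0.258) in iSuRe-Cre liver, against 1.06 (0.847 to 1.32) and 1.04 (0.589 to 1.85) for iSuRe-HadCre, although Notch1 was low in both. Set against each other, iSuRe-HadCre exceeded iSuRe-Cre 4.43 times in heart (3.45 to 5.72) and 6.77 times in liver (4.09 to 11.0). In heart this was 2.78 times with log-normalized WPRE above 0.5 in the iSuRe groups and 7.91 times in the capillary gate, and in liver it was 2.65 times with a hashtag minimum of 10 UMIs, 3.25 times with HTODemux singlets and 1.09 times in cells with a Stab2 UMI. No single cell carried the level, since the highest count in a cell of these groups was 9 UMIs.

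Nrarp, the feedback inhibitor, did not separate the heart groups, where it was at 49.7 CPM in control (42.1 to 58.3), 49.6 in iSuRe-Cre (44.9 to 54.6) and 48.7 in iSuRe-HadCre (41.5 to 56.8). In liver it was at 58.5 CPM in control (43.3 to 77.3), 30.0 in iSuRe-Cre (26.8 to 33.6) and 42.7 in iSuRe-HadCre (30.1 to 58.9). The ratio to control was 0.998 (0.826 to 1.21) in iSuRe-Cre heart and 0.514 (0.379 to 0.710) in iSuRe-Cre liver. Rbpj, encoding the DNA-binding partner, was at 74.4, 64.8 and 85.1 CPM in control, iSuRe-Cre and iSuRe-HadCre heart and at 93.1, 77.0 and 75.1 CPM in liver. Its ratios to control lay between 0.806 and 1.14, and the interval of each included 1. Rbpj of iSuRe-HadCre was at 1.31 times that of iSuRe-Cre in heart (1.13 to 1.52) and at 0.974 times in liver (0.744 to 1.26). Free RNA held Rbpj at 91.0 CPM, above 5 of the 6 levels.

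The other 3 genes were rare in these cells. Hey2, a repressor known from artery and heart development, gave 13, 18 and 9 UMIs in control, iSuRe-Cre and iSuRe-HadCre heart (4.28, 2.15 and 2.71 CPM). It gave 0, 15 and 1 UMIs in liver, where the exact interval of the 0 in control reached up to 4.40 CPM. Heyl, a Notch target best known from mural cells, gave 9, 8 and 0 UMIs in heart and 1, 5 and 0 in liver. Against a floor of 3 UMIs for a count of 0, Heyl in iSuRe-HadCre heart was at least 3.28-fold below the 2.96 CPM of control heart. The exact interval of its ratio, which also carries the error of the 9 control UMIs, reached up to 0.463. The smooth muscle list moved with it, at 89.5, 25.3 and 23.2 CPM in control, iSuRe-Cre and iSuRe-HadCre heart with 0 of its 4 markers at 0, and its part in the Heyl level was not tested. Both genes were at 3.25 CPM in free RNA, above every one of these levels but the 4.28 CPM of Hey2 in control heart. Hes5, a target best known from neural progenitors, gave 2, 16 and 32 UMIs in heart (0.658, 1.91 and 9.62 CPM) and 1, 65 and 7 UMIs in liver (1.19, 6.34 and 8.08 CPM). All 6 levels were below the 42.3 CPM of free RNA.

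**Figure D1:**
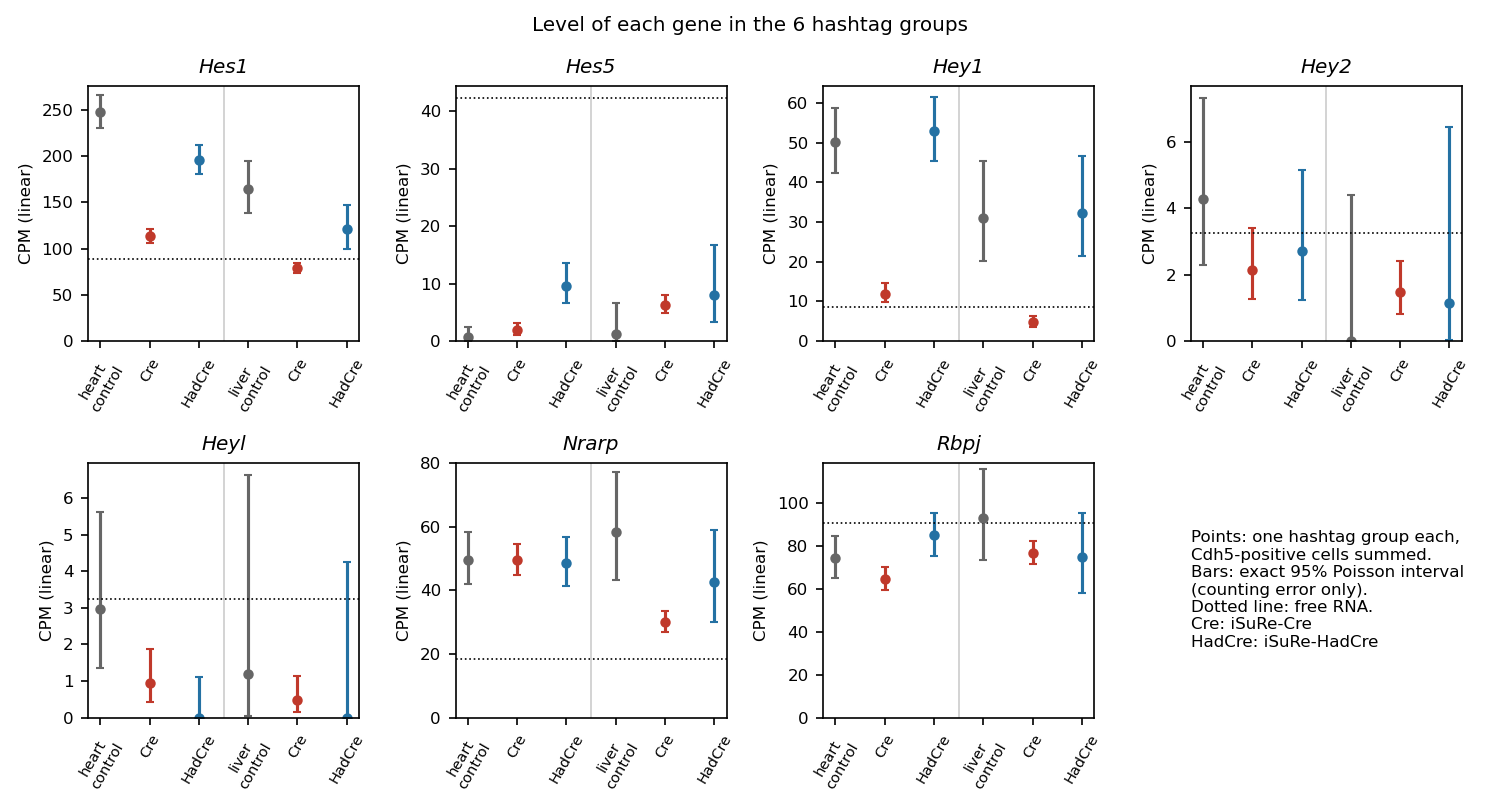
CPM of each gene (linear vertical axes from 0) in the 6 hashtag groups, heart on the left and liver on the right of each panel; points are groups, bars exact 95% Poisson intervals and the dotted line the level in free RNA. Hes1 and Hey1 were lowest in iSuRe-Cre in both tissues, and Hey1 of iSuRe-HadCre (52.9 in heart, 32.3 in liver) overlapped control.

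The genes were counted as lower or higher at a ratio of 1.5 or more in either direction, among features with at least 20 UMIs over both groups. In iSuRe-Cre heart 3 of 5 countable members were lower (Hes1, Hey1 and Hey2) and 0 higher, where 11.3% of 12214 features were lower and 11.4% higher. In iSuRe-Cre liver 3 of 5 were lower (Hes1, Hey1 and Nrarp) and 1 higher (Hes5), against 17.5% and 16.4% of 12849 features. In iSuRe-HadCre heart 1 of 6 was lower (Hey2) and 1 higher (Hes5), against 3.51% and 16.7% of 11609 features. In iSuRe-HadCre liver 0 of 4 passed in either direction, against 11.0% and 11.1% of 9195 features. The median ratio of the countable members was 0.503 and 0.514 in iSuRe-Cre heart and liver, beside 0.963 and 0.953 for all features, and 1.02 and 0.771 in iSuRe-HadCre, beside 1.11 and 1.00. Both iSuRe groups of a tissue were set against the same control cells. The Hey2 calls rest on few UMIs, and their intervals, 0.233 to 1.12 in iSuRe-Cre heart and 0.239 to 1.60 in iSuRe-HadCre heart, included 1. Hes5 became countable only through the group in which it was high, with 65 UMIs in iSuRe-Cre liver against 1 in control and 32 in iSuRe-HadCre heart against 2, so its 2 higher calls support nothing, and its interval in iSuRe-Cre liver, 0.921 to 213, also included 1. Since the median feature was 1.11 times control in iSuRe-HadCre heart, levels were also scaled to the median ratio of features with many UMIs, which gave 0.739 for Hes1, 0.9901 for Hey1 and 0.917 for Nrarp there.

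**Figure D2:**
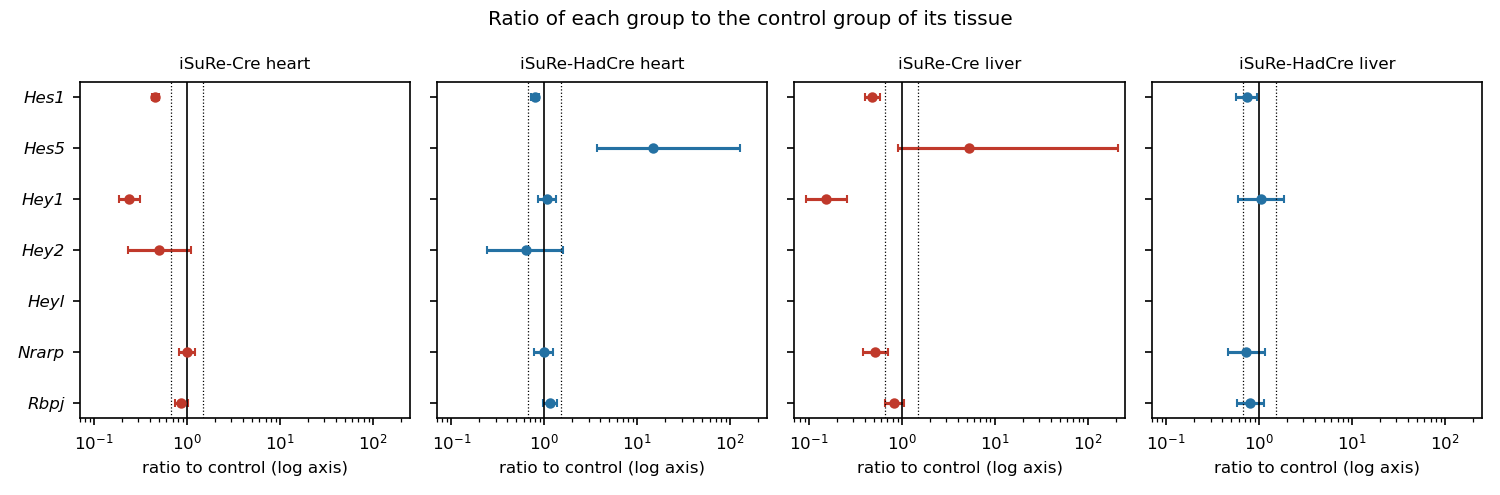
Ratio of each iSuRe group to the control group of its tissue (logarithmic horizontal axes), with exact 95% intervals; genes with under 20 UMIs over both groups are not drawn, the solid line is 1 and the dotted lines mark a 1.5-fold difference. Hey1 lay at 0.239 and 0.154 in iSuRe-Cre and at 1.06 and 1.04 in iSuRe-HadCre.

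The share of cells with a UMI was read after thinning each cell to 2000 UMIs, because depth differed between groups. Hey1 was then found in 10.8% of control, 2.39% of iSuRe-Cre and 10.9% of iSuRe-HadCre heart cells, and in 8.13%, 0.851% and 7.27% of liver cells. Unthinned shares were 28.2%, 12.4% and 27.0% in heart and 21.3%, 4.76% and 15.5% in liver. As a background, cells gated by neutrophil markers, which are not known for Hey1, gave 2.83% thinned and 5.02% unthinned at a median of 4052 UMIs, and both iSuRe-Cre shares of Hey1 were below that after thinning. Macrophage and hepatocyte gates gave 1.24% and 0.0208% thinned. Hes1 was found, thinned, in 34.0%, 18.9% and 28.5% of heart cells and 31.8%, 13.9% and 20.3% of liver cells, against 13.5% in the neutrophil gate. Nrarp gave 8.68%, 9.64% and 9.93% in heart and 14.3%, 5.78% and 7.42% in liver, against 2.62%. The erythroid gate, intended as background, held 16 cells, of which 0 had a Hey1 UMI (exact 95% binomial upper bound 20.6%).

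Heart ECs were next split by endothelial marker lists, because the groups held different kinds of cells. The capillary list (Tcf15, Fabp4, Meox2, Car4 and Cd36) took 69.0% of control, 46.5% of iSuRe-Cre and 38.2% of iSuRe-HadCre heart cells, and the arterial list (Gja5, Gja4, Bmx and Sema3g) took 7.84%, 3.66% and 10.0%. Gja5, Gja4 and Bmx are themselves genes known to rise with Notch signalling, so the arterial gate is not independent of the pathway. The capillary list differed between the groups as well, at 21017, 14773 and 11337 CPM in control, iSuRe-Cre and iSuRe-HadCre heart. Whether its genes depend on the pathway was not tested. Within the capillary gate Hes1 was at 300.03 CPM in control cells, and at 108 and 243 CPM in those of iSuRe-Cre and iSuRe-HadCre. Hey1 there was at 30.0, 8.92 and 70.6 CPM, a ratio to control of 0.297 (0.188 to 0.464) in iSuRe-Cre and of 2.35 (1.63 to 3.40) in iSuRe-HadCre. Within the arterial gate, with 20, 16 and 32 cells, Hey1 was at 239, 55.6 and 139 CPM, a ratio to control of 0.233 (0.115 to 0.441) and 0.580 (0.371 to 0.907). In cells of no gate Hey1 was at 56.5, 13.5 and 32.5 CPM, a ratio of 0.239 (0.159 to 0.360) and 0.575 (0.391 to 0.853). Hey1 was thus below control in iSuRe-Cre in all 3 classes of cells. In iSuRe-HadCre it was above control in the capillary gate and below it in the other two, and the ratio of 1.06 over all heart cells is an average over these. Notch1 was at 0.0852 times control within the iSuRe-HadCre capillary gate and at 0.0306 times control within that of iSuRe-Cre. Nrarp was at 56.9, 64.4 and 72.7 CPM within the capillary gate, and at 77.8, 12.8 and 51.6 CPM within the arterial gate, where iSuRe-Cre stood at 0.165 times control (0.0304 to 0.592). Hes1 in the arterial gate was at 156, 141 and 145 CPM, with overlapping intervals.

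**Figure D3:**
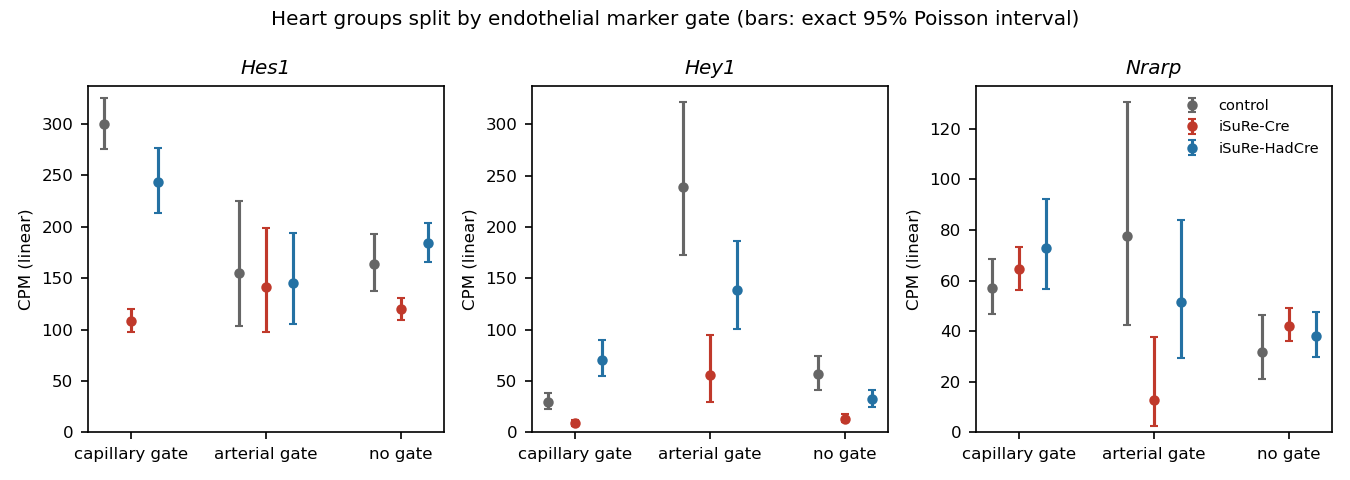
Hes1, Hey1 and Nrarp in heart cells of the capillary gate, the arterial gate and no gate, in CPM (linear axes from 0); points are the control, iSuRe-Cre and iSuRe-HadCre groups and bars exact 95% Poisson intervals. Hey1 of iSuRe-HadCre was above control in the capillary gate (70.6 against 30.0) and below it in the arterial gate (139 against 239).

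In liver the cells were split by Stab2, a scavenger receptor of sinusoidal ECs, which had a UMI in 13 control, 641 iSuRe-Cre and 27 iSuRe-HadCre cells. Among cells without a Stab2 UMI (48, 262 and 57) Hey1 was at 37.5 CPM in control cells, and at 8.47 and 45.5 CPM in those of iSuRe-Cre and iSuRe-HadCre, a ratio to control of 0.226 (0.123 to 0.415) and 1.21 (0.674 to 2.20). Among cells with a Stab2 UMI it was at 10.1, 3.37 and 3.66 CPM, from 2, 25 and 1 UMIs, and iSuRe-HadCre did not stand apart from iSuRe-Cre, with a ratio of 1.09 (0.0265 to 6.64). Hes1 behaved likewise. Without Stab2 it was at 158, 83.6 and 143 CPM, and with Stab2 at 187, 77.0 and 73.3 CPM, so that its ratio of iSuRe-HadCre to iSuRe-Cre was 1.71 (1.32 to 2.20) in the first class and 0.952 (0.577 to 1.48) in the second. Nrarp was at 54.7, 30.7 and 47.2 CPM without Stab2 and at 70.6, 29.8 and 33.0 CPM with it. The difference between the 2 alleles in liver was thus seen in cells without Stab2. In cells with Stab2 the counts were too few to set Hey1 apart. The arterial gate took 9.84% of control, 1.88% of iSuRe-Cre and 13.1% of iSuRe-HadCre liver cells. The 11 arterial cells of iSuRe-HadCre liver held 11 of its 28 Hey1 UMIs and 26 of its 105 Hes1 UMIs. In liver cells of no gate Hey1 of iSuRe-HadCre was 3.52 times that of iSuRe-Cre (1.64 to 7.08). Hes1 there did not separate the alleles, at 1.14 times (0.840 to 1.52). The part of the arterial share in the contrast without Stab2 was not tested.

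**Figure D4:**
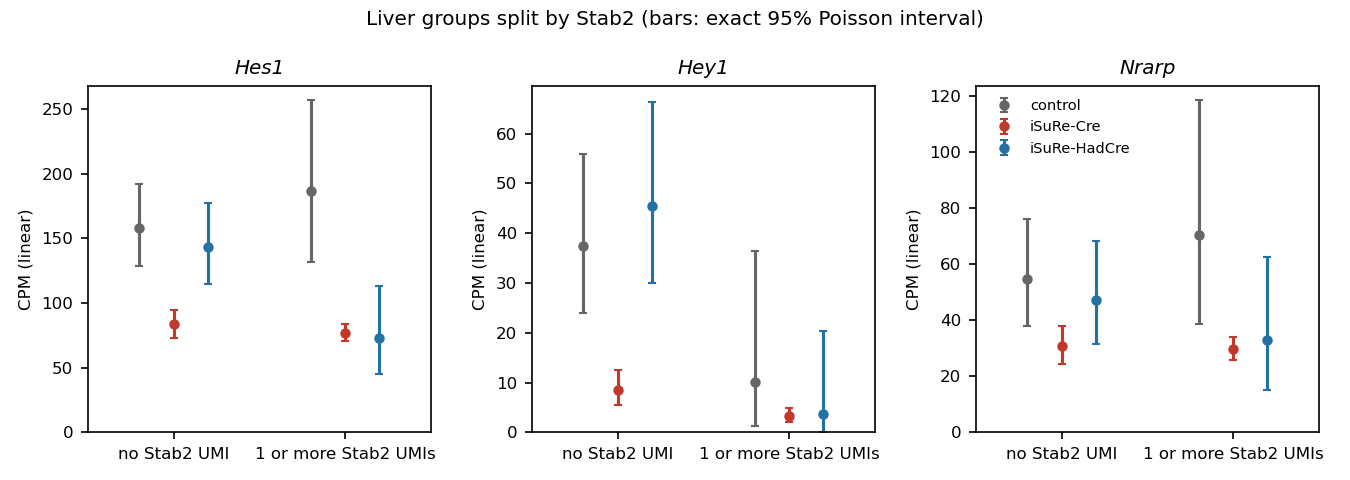
Hes1, Hey1 and Nrarp in liver cells without and with a Stab2 UMI, in CPM (linear axes from 0); points are the control, iSuRe-Cre and iSuRe-HadCre groups and bars exact 95% Poisson intervals. Without Stab2, Hey1 was at 8.47 in iSuRe-Cre and 45.5 in iSuRe-HadCre, and with Stab2 at 3.37 and 3.66.

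Cells were also split by whether a Notch1 UMI was seen, which depends on depth. Among cells without one, Hey1 was at 10.3 CPM (8.03 to 13.1) in iSuRe-Cre heart and 56.8 CPM (47.8 to 66.9) in iSuRe-HadCre heart, and at 3.31 CPM (2.16 to 4.86) and 36.0 CPM (22.0 to 55.5) in liver. Among cells with one, Hey1 was at 18.4 and 41.3 CPM in iSuRe-Cre and iSuRe-HadCre heart. Control heart held it at 38.9 CPM in 76 cells without a Notch1 UMI and at 53.0 CPM in 179 cells with one. Control liver went the other way, at 57.8 CPM (26.4 to 110) in 15 cells without and 24.9 CPM (14.5 to 39.9) in 46 cells with one, and liver cells with a Notch1 UMI had Hey1 at 9.56 CPM in iSuRe-Cre and 25.8 CPM in iSuRe-HadCre. The contrast of Hey1 between the alleles was therefore as large in cells without a Notch1 UMI as over all cells. Cells with a Hey1 UMI had Hes1 at 275 CPM in control heart against 237 CPM in the remaining cells, at 139 against 109 CPM in iSuRe-Cre heart and at 183 against 201 CPM in iSuRe-HadCre heart. In liver the same levels were 228 against 149 CPM in control, 113 against 75.6 CPM in iSuRe-Cre and 202 against 106 CPM in iSuRe-HadCre.

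The UMIs of Hes5 lay mostly in cells that also held RNA of another cell type. The glia and neural progenitor list of 5 genes, among them Fabp7, Sox10, Sox2 and Ptprz1, summed to 17.8, 50.4 and 79.1 CPM in control, iSuRe-Cre and iSuRe-HadCre heart and to 13.1, 110 and 189 CPM in liver, and to 313 CPM in free RNA. Of its 5 genes, 1 was at 0 in control heart, control liver and iSuRe-HadCre liver, and 0 were at 0 in the other groups. Of the 32 Hes5 UMIs of iSuRe-HadCre heart, 30 lay in the 45 cells with a UMI of this list, and of the 65 of iSuRe-Cre liver, 53 lay in 166 such cells. Cells without a UMI of the list gave Hes5 at 0.781, 0.434 and 0.839 CPM in control, iSuRe-Cre and iSuRe-HadCre heart and at 1.61, 1.53 and 0 CPM in liver. The ratio of iSuRe-HadCre to control heart, 14.6 (3.73 to 126) over all cells, was 1.07 (0.0778 to 14.8) in these cells, from 2 UMIs in each group. In the same cells Hey1 kept its pattern, at 53.1, 10.4 and 58.3 CPM in heart and 40.3, 4.07 and 37.3 CPM in liver. Other lists differed between groups too, and their part in the Hes and Hey levels was not tested. The neutrophil list was at 9904, 5418 and 3953 CPM in control, iSuRe-Cre and iSuRe-HadCre liver, the hepatocyte list at 1206, 336 and 34.6 CPM, and immediate early genes (Fos, Fosb, Jun, Junb, Egr1, Atf3 and Ier2), which respond to dissociation, at 3304, 2595 and 3333 CPM in heart and 1909, 2178 and 2399 CPM in liver.

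The other genes of the pathway were taken from lists chosen by role. Over all features, 11.3% and 17.5% were lower in iSuRe-Cre heart and liver, and 3.51% and 11.0% in iSuRe-HadCre. In the same order 11.4% and 16.4%, and 16.7% and 11.1%, were higher. Of 4 receptors, Notch1 and Notch4, the endothelial receptor, were lower and Notch3, a mural receptor, higher in iSuRe-Cre heart. The pericyte list was at 51.7, 144 and 41.5 CPM in control, iSuRe-Cre and iSuRe-HadCre heart with 0 of its 4 markers at 0, and its part was not tested. Notch4 was at 47.7, 3.70 and 49.3 CPM in control, iSuRe-Cre and iSuRe-HadCre heart and at 26.3, 4.78 and 30.0 CPM in liver. Like Hey1 it was low in iSuRe-Cre, while its ratio to control in iSuRe-HadCre heart was 1.03 (0.822 to 1.30). In iSuRe-HadCre heart 1 receptor was lower (Notch1) and 2 were higher (Notch2 and Notch3). Control heart held 6 Notch3 UMIs and iSuRe-HadCre heart 20, so Notch3 became countable there only through the group in which it was high. That higher call supports nothing. The Notch3 call of iSuRe-Cre heart, with 64 UMIs, rests on the same 6 control UMIs. In iSuRe-Cre liver 3 of 4 receptors were lower, and in iSuRe-HadCre liver 1 was lower and 1 higher. The higher one was Notch3, from 13 UMIs against 8 in control liver, and its interval, 0.604 to 4.38, included 1. Notch3 was also among the lower receptors of iSuRe-Cre liver, where its interval, 0.271 to 1.39, included 1 as well. Of the ligands, 2 of 4 countable ones were lower in iSuRe-Cre heart and 4 of 5 in iSuRe-Cre liver, against 0 of 4 and 0 of 5 in iSuRe-HadCre. Dll1, a ligand of many tissues, was the 1 higher ligand in iSuRe-Cre heart and in both tissues of iSuRe-HadCre. Its interval in iSuRe-Cre heart, 0.985 to 2.43, included 1. In iSuRe-HadCre liver it had 36 UMIs against 14 in control, so it became countable there only through the group in which it was high. That call supports nothing. Dll4, the ligand of tip cells and arteries, was at 44.4, 20.0 and 45.7 CPM in heart and 46.5, 17.6 and 37.0 CPM in liver. Jag1, a ligand of arterial and mural cells, was at 53.3, 22.0 and 47.8 CPM in heart and 75.2, 30.3 and 68.1 CPM in liver. Among Fringe modifiers 1 of 3 was lower in iSuRe-Cre heart and 1 of 3 in iSuRe-Cre liver, and 0 passed in either direction in iSuRe-HadCre. Of the 7 secretase and sheddase genes, which cleave the receptor, 0 were lower in iSuRe-Cre in either tissue, and the median ratio was 0.832 in heart and 1.04 in liver, with 0.887 and 0.946 in iSuRe-HadCre. Psen2, a catalytic subunit of gamma-secretase, was the 1 higher gene in iSuRe-Cre liver, at 1.91 times control (1.25 to 3.07), and the 1 lower gene in iSuRe-HadCre heart, at 0.597 (0.404 to 0.873). The 6 coactivators and corepressors had medians of 0.839 and 0.892 in iSuRe-Cre heart and liver, and 1.19 and 0.889 in iSuRe-HadCre. Genes of Notch turnover had medians of 0.823 and 0.774 in iSuRe-Cre and 1.16 and 0.946 in iSuRe-HadCre. The remaining hairy-related genes had 2 of 7 countable, Hes6 and Bhlhe40, and Bhlhe40 was at 88.9, 55.1 and 76.7 CPM in heart.

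Endothelial genes known to rise with Notch signalling were mostly lower in iSuRe-Cre beside Hes1 and Hey1. In heart 7 of 8 were lower in iSuRe-Cre, with a median ratio of 0.428, and 0 of 8 in iSuRe-HadCre, with a median of 0.909. The share of all features that were lower was 11.3% and 3.51% there, and 17.5% and 11.0% in liver. In liver 7 of 8 were lower in iSuRe-Cre and 1 was higher (Flt1), with a median of 0.471, and 1 of 7 was lower in iSuRe-HadCre (Gja5), with a median of 1.17. Efnb2, the ephrin that marks arteries, was at 241, 120 and 279 CPM in control, iSuRe-Cre and iSuRe-HadCre heart and at 143, 64.6 and 152 CPM in liver. Gja5, an arterial connexin, was at 20.4, 2.75 and 22.9 CPM in heart and 75.2, 13.5 and 28.9 CPM in liver. Unc5b, an arterial guidance receptor, was at 83.6, 24.9 and 67.1 CPM in heart. Genes known to be held down by Notch divided the alleles only in part. Set allele against allele, 1 of 6 was lower and 1 higher in iSuRe-HadCre heart, and 3 were lower and 1 higher in iSuRe-HadCre liver. Flt4 of liver had a ratio to control of 5.59 (3.88 to 8.37) for iSuRe-Cre, beside 0.968 (0.558 to 1.68) for iSuRe-HadCre. Apln of heart had 1.53 (1.34 to 1.75) beside 0.998 (0.844 to 1.18), but Apln of liver had 1.08 beside 1.94. Kdr, the main VEGF receptor, was higher than control with both alleles, at 184, 477 and 780 CPM in heart and 174, 719 and 331 CPM in liver. Of the 6 genes of this list 3 were higher in iSuRe-Cre heart, 1 in iSuRe-HadCre heart, 3 in iSuRe-Cre liver and 3 of 5 countable ones in iSuRe-HadCre liver, with medians of 1.30, 0.907, 1.60 and 1.83. The shares of all features that were higher were 11.4%, 16.7%, 16.4% and 11.1% in the same order. Of the 3 higher in iSuRe-HadCre liver, Angpt2 rests on 17 UMIs against 9 in control, and its interval, 0.771 to 4.65, included 1. In each of the first 3 comparisons 1 gene was lower, Esm1, a tip cell gene, being at 12.5, 3.94 and 3.91 CPM in heart. The arterial gate took 7.84% of control and 3.66% of iSuRe-Cre heart cells, and 9.84% and 1.88% in liver. The sinusoidal list gated 42.0% of iSuRe-Cre and 0% of control liver cells. The part of these cell mixes in the levels of both lists was not tested.

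Across cell types the 7 genes had different distributions. Cells were gated by UMIs of fixed marker lists, hashtag or not, with Cdh5 at 0 for the lists that are not endothelial. This put 3982 cells in 16 gates of at least 20 cells. Most gated cells outside the endothelial lists had no hashtag, so their tissue of origin is not known. Erythroid, cardiomyocyte, lymphocyte and megakaryocyte gates held 16, 5, 14 and 2 cells and are not described further. The gate on Prox1, Pdpn and Ccl21a, lymphatic markers, summed to 4918 CPM for the hepatocyte list and 1579 CPM for the glia list, with Sftpc, Ttr and Fabp7 among its leading genes, and is not read as a cell type. The gate on smooth muscle markers was led by Acta2 and Tagln together with the skeletal muscle genes Mylpf, Actc1 and Ttn and is called the Acta2 and Tagln gate.

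Hey1 was highest in the arterial gate, at 122 CPM (110 to 135) in 329 cells. Next came the pericyte gate at 36.0 (21.0 to 57.7, 24 cells), the glia and neural progenitor gate at 33.6 (28.1 to 39.9) and the capillary gate at 24.6 (21.6 to 27.9), of which pericyte overlapped both of the others and glia did not overlap capillary. The neuron gate was at 15.4 CPM, and the lowest were the sinusoidal gate at 1.65 (0.665 to 3.41) and the hepatocyte gate at 0.398 (0.0101 to 2.21). These gates pool the 6 groups with cells of no hashtag, and 379 of the 384 hashtagged cells of the sinusoidal gate were of iSuRe-Cre liver and 0 of control liver, so that its low Hey1 cannot be told apart from the allele. Pooled in this way Hes1 was at 262 CPM (244 to 281) in the arterial gate, 189 (180 to 198) in the capillary gate and 167 (154 to 180) in the glia gate. The order of arterial and capillary turned within groups, since Hes1 was higher in the capillary gate in control heart (300.03 against 156 CPM) and iSuRe-HadCre heart (243 against 145 CPM) and lower there in iSuRe-Cre heart (108 against 141 CPM, with overlapping intervals). Only 102 of the 329 arterial cells and 517 of the 887 capillary cells carried a hashtag. It was lowest in the macrophage gate at 13.7 and the neuron gate at 11.3 CPM. Nrarp, pooled, was at 65.2 CPM (60.3 to 70.4) in the capillary gate, 57.2 in pericyte, 56.6 in glia and 51.6 CPM (43.7 to 60.6) in the arterial gate, and in control heart it was at 77.8 CPM in the arterial against 56.9 CPM in the capillary gate, with overlapping intervals, so its order too depends on the mix of groups. It was at 2.33 CPM in the chondrocyte and 2.06 CPM in the mesenchymal gate.

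Hes5 was at 394 CPM (375 to 414) in the glia and neural progenitor gate, where 71.2% of cells had a UMI. In the arterial, capillary and sinusoidal gates it was at 3.08, 2.21 and 2.84 CPM. Heyl was at 38.1 CPM (22.6 to 60.3) in the pericyte gate, 21.2 (16.8 to 26.3) in the glia gate and 15.1 (10.7 to 20.6) in the Acta2 and Tagln gate, and neighbours in this order overlapped. In the arterial and capillary gates Heyl was at 0.684 and 0.503 CPM. Hey2 was at 21.2 CPM (10.2 to 39.0) in the pericyte gate, 15.2 (11.6 to 19.7) in the glia gate and 8.21 (5.26 to 12.2) in the arterial gate, again overlapping from one to the next. Within ECs, Hey2 in the arterial gate exceeded the 0.201 CPM (0.0243 to 0.726) of the capillary gate. Rbpj was highest in the macrophage gate, at 517 CPM (480 to 555), then in the neuron gate at 175 (162 to 190) and the Acta2 and Tagln gate at 169 (153 to 185), and lowest in the hepatocyte gate at 39.8 CPM. Free RNA held Rbpj at 91.0 CPM, above the hepatocyte, capillary, arterial and several other gates. A Rbpj UMI was present in 43.1% of capillary and 41.3% of arterial cells. The part of free RNA in these gates was not tested, so a level there is read neither as expression nor as its absence.

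**Figure D5:**
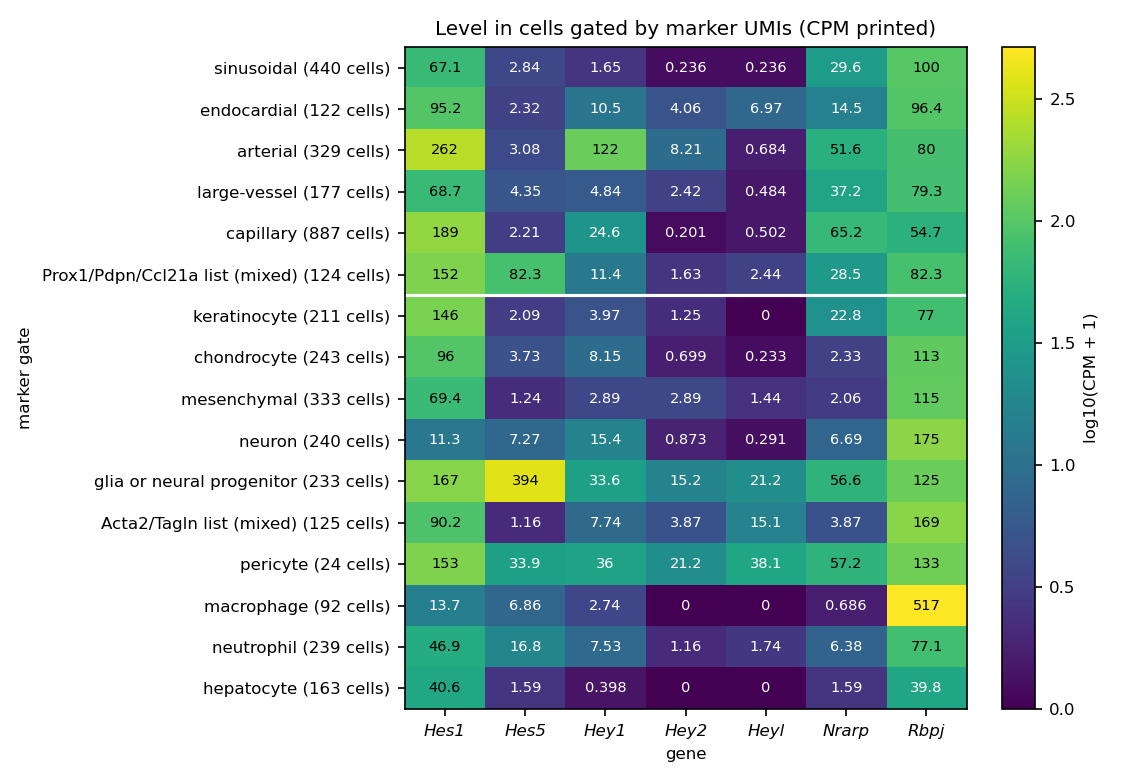
Level of each gene in 16 marker gates, endothelial gates above the white line, with CPM printed in each cell of the plot and colour giving log10 of that value plus 1; cell numbers stand beside each gate, and cells of all groups and of no hashtag are pooled. Hey1 was highest in the arterial gate, Hes5 in the glia and neural progenitor gate (394), Heyl in the pericyte gate (38.1) and Rbpj in the macrophage gate (517).

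Of 12126 genes with at least 200 UMIs over the gates, those most like each member by Pearson's r of log2(CPM + 10) over the 16 gates were named. For Hes1 these were Id1 (r = 0.956), Id3 (0.830) and Rhbdf1 (0.820), and for Hey1 they were Snx11 (0.846), Cmya5 (0.835) and Notch4 (0.833). For Heyl they included Ano1 (0.910) and Notch3 (0.896), and for Hey2 they were Afap1l2 (0.938), Eri2 (0.862) and Shroom3 (0.845). For Nrarp they were Ttf1 (0.882), Ift140 (0.838) and Mcam (0.826), and for Hes5 they were Nr2e1 (0.952), Rfx4 (0.951) and Mt3 (0.951). Among the members themselves the highest r was that of Hey2 with Heyl (0.868), followed by Hes1 with Nrarp (0.717). Rbpj had r of -0.491 with Hes1 and -0.338 with Nrarp. Hey2 and Heyl had 148 and 175 UMIs over the gates, under the 200 asked of the other genes, so their r rests on few UMIs. All gates come from the same library and free RNA, and the correlations are a description.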

How the data were processed

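The measurements are UMI counts of 1 10x Genomics library holding 6 hashtag groups. The authors used Cell Ranger 7.1.0 for alignment and counting, on GRCm38 with Ensembl 98 genes plus transgene sequences, and the deposited counts are unfiltered and not normalized. Seurat is also named in the submitters' processing notes. Columns of fold changes or p-values were not among the files.

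From these counts, barcodes were kept by the limits in the text. A hashtag was positive at 25 UMIs, or 140 for hashtag 302, and barcodes positive for several were left out as doublets, while doublets within a group were not removed. The 7 hashtag and multiplexing features without a group were not used. UMIs were summed per group. Intervals are exact Poisson (levels), exact binomial (shares) and exact conditional (ratios) at 95%, and with 1 sample a group no test was made. Thinning gives the mean over all draws of 2000 UMIs. A cell was gated at 10 UMIs of a list (3 for endothelial lists), at 5 times the free RNA level and over at least 2 markers, and cells in 2 lists of a kind were left out. Within-gate ratios needed 15 cells in each group.

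The members and lists were chosen with earlier results of these data known, and so was the hashtag minimum. Genes named are the members, the lists by role and the 3 genes most like each of 6 members, of which some names are not reported here. The ratio calculation was tested on simulated data. Alternatives covered the Cdh5, WPRE, hashtag and quality limits, HTODemux calls, scaling, free RNA, depth and Stab2. Python 3.11.15, scipy 1.17.1, R 4.3.3 and Seurat 5.3.0 were used.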

Additional observations from a re-analysis of the deposited data

Results flagged for a closer look

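Hes5 was at 18.6 CPM (95% interval 17.4 to 20.0) in the 6103 Cdh5-positive barcodes that carried none of the 6 hashtags, which no comparison between groups used, against 0.658 CPM in control heart and 1.19 CPM in control liver. The groups of these barcodes are not known. A UMI of the glia and neural progenitor list was present in 31.6% of them. Hes5 was at 48.7 CPM in those and at 4.20 CPM in the remainder, and the part of that list in the level was not tested further.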

How the results depend on the processing

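The 3 members counted as lower in iSuRe-Cre heart, and the 3 in iSuRe-Cre liver, ranged from 2 to 4 over 17 alternatives each. The Hes1 ratio to control ranged from 0.361 to 0.535 in iSuRe-Cre heart and from 0.364 to 0.553 in iSuRe-Cre liver, and the Hey1 ratio from 0.191 to 0.370 and from 0.0779 to 0.347. For iSuRe-HadCre, Hey1 ranged from 0.9901 to 2.35 in heart, the highest in the capillary gate, and from 0.363 to 1.30 in liver, the lowest in cells with a Stab2 UMI. Between the alleles, Hey1 of iSuRe-HadCre ranged from 2.78 to 7.91 times that of iSuRe-Cre in heart and from 1.09 to 10.9 times in liver. With HTODemux singlets Hey1 was at 1.43 times control in iSuRe-HadCre heart. The 1 lower member of iSuRe-HadCre heart (Hey2) became 0 with log-normalized Cdh5 above 0.9, WPRE above 0.5, hashtag minimums of 10 and 50 UMIs, the mean over cells, a fold of 2, cells of 5000 to 20000 UMIs, no UMI of the glia list, the capillary gate and no Notch1 UMI, and 2 with no UMI minimum. The 0 lower members of iSuRe-HadCre liver became 1 with the Cdh5 and WPRE limits and with no UMI minimum, 2 with the mean over cells, without the 5% deepest cells and with no UMI of the glia list, and 3 in cells with Stab2 and in cells of 5000 to 20000 UMIs. The 1 higher member (Hes5) became 0 in iSuRe-HadCre heart with HTODemux singlets, cells of 5000 to 20000 UMIs, no UMI of the glia list and no Notch1 UMI, and 0 in iSuRe-Cre liver with HTODemux singlets, Stab2 and no UMI of the glia list. With no UMI minimum, higher members numbered 1 and 2 in iSuRe-Cre heart and liver and 2 in iSuRe-HadCre liver, and a hashtag minimum of 50 gave 1 in iSuRe-Cre heart. Directions turned with HTODemux singlets for Hey2 in heart (1.13 in iSuRe-Cre and 1.14 in iSuRe-HadCre) and Hes5 (0.672 in iSuRe-HadCre heart and 0.772 in iSuRe-Cre liver), with no UMI of the glia list for Hes5 in iSuRe-Cre liver (0.947), and with Stab2 for Hes1 of iSuRe-HadCre against iSuRe-Cre liver (0.952). Beyond fewer UMIs, the cause of these shifts was not tested. The depth, Notch1, glia-list and capillary alternatives were added after seeing the data. With a gate minimum of 20 UMIs (6 for endothelial lists), 104 of 112 gate levels stayed inside their intervals, and Heyl in the pericyte gate went from 38.1 to 92.7 CPM.

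No replicate was left out, since each group was 1 sample. No paired analysis was possible because the hashtag groups carry no replicate numbers. Control liver, with 61 cells, limits every liver ratio to control, and genes under 20 UMIs were not counted.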
